A study of Mus musculus with 7 samples.

Results

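The 4 control papillomas (CTR) of a study on *Nanog* in skin tumorigenesis are described here from their own transcriptomes, out of 7 papillomas sequenced in all. Members were the samples whose label names them CTR, and no contrast with the transgenic papillomas was made. Each papilloma was skin tissue from a different mouse of C57Bl/6 background that carried the tetO-*Nanog* allele, inserted downstream of *Col1a1*, but lacked the K5-rtTA transactivator that would switch it on in basal keratinocytes. All received the mutagen DMBA and the tumor promoter TPA on the back skin, with doxycycline at 2 mg/ml in drinking water throughout. By the study's methods an observation period followed the TPA treatment, and papillomas were taken when the protocol ended or a humane endpoint was reached. Sex and age are not in the labels, and the study's methods describe treatment of young adult mice. The allele and doxycycline were common to the 4 mice, so their part in the values below cannot be told apart. Poly-A RNA was sequenced from whole tissue, and the values are FPKM, fragments scaled for transcript length and for the number of mapped reads, which can be compared between genes because they are per length.

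A papilloma is a benign outgrowth of squamous epithelium. In two-stage carcinogenesis DMBA leaves keratinocytes with an activating *Hras* mutation as a rule, and repeated TPA expands them through protein kinase C and AP-1, a family of transcription factors that binds TGA(C/G)TCA. Keratinocytes divide in a basal layer marked by the keratin pair *Krt5* and *Krt14*, switch to *Krt1* and *Krt10* as they leave it, and finally build the cornified envelope from small proline-rich proteins, loricrin and related products. In hyperproliferative epidermis *Krt6a*, *Krt6b*, *Krt16* and *Krt17* come on, and *Krt13*, a keratin of internal stratified epithelia such as the oral mucosa, is a known marker of mouse skin papillomas.

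The reads implied by the Cufflinks intervals ranged from 10074859 to 15622165 per papilloma, with CTR 3 the deepest. Of 23194 gene symbols kept, 9939 had at least 1 FPKM in all 4 papillomas, 10790 had a mean of at least 1 FPKM and 4885 were at 0 in all. A mean of at least 100 FPKM was reached by 458 genes and of at least 1000 FPKM by 53 genes. Across the 10790 genes the Pearson correlation of log2(FPKM + 0.5) between papillomas ran from 0.942 for CTR 1 with CTR 2 to 0.973 for CTR 3 with CTR 4. It is a correlation across genes, which are not independent replicates.

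A small number of genes carried much of the signal. The 10 most abundant genes of each papilloma held 14.5% ± 0.38 (SD, n = 4) of the summed FPKM and the 100 most abundant held 41.5% ± 2.22. Between 142 genes in CTR 3 and 193 genes in CTR 1 were enough to reach 50% of the sum. Each papilloma had its own top 100, and 77 genes were in all 4 of these lists. Of the top 25 genes of each papilloma, 15 were shared by all.

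**Figure D1:**
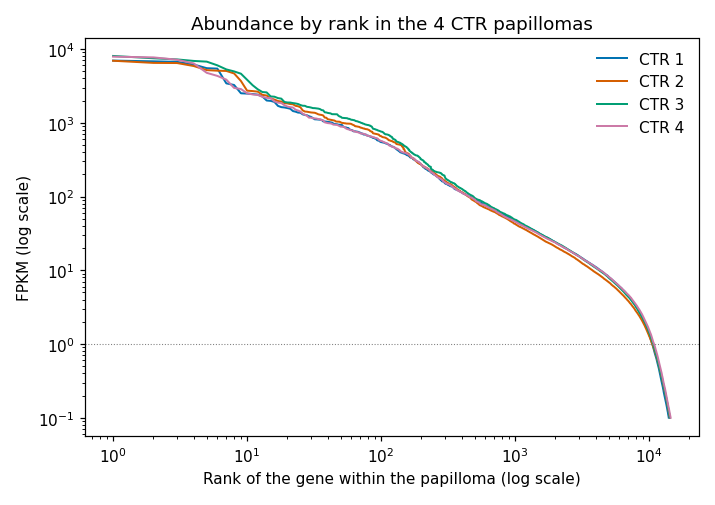
FPKM of each gene (y axis, log scale) against its rank within the papilloma (x axis, log scale), 1 line for each CTR papilloma, down to 0.1 FPKM; the dotted line marks 1 FPKM. The 4 lines run almost together, and between 10564 and 10885 genes lie at or above 1 FPKM.

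Keratins led the ranking. *Krt6b* was the most abundant gene, with 6807, 6453, 8049 and 7695 FPKM in CTR 1 to CTR 4 and a mean of 7251 ± 746 (SD, n = 4). *Krt14* followed with 5494, 6932, 7487 and 7874 FPKM, lowest in CTR 1. *Krt16* had 6687, 6481, 7224 and 6375 FPKM, and *Krt6a* 6965, 5877, 6742 and 7163 FPKM. These 4 genes had overlapping ranges, and their order changed from papilloma to papilloma, so no order among them stood beyond the spread. *Krt16* was the steadiest of them, with a coefficient of variation (CV) of 5.64% against 15.0% for *Krt14*.

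After the keratins came genes of the differentiating layers and of lipid handling. *Krtdap*, a secreted protein of the suprabasal layers, had 5422, 4664, 6890 and 3841 FPKM. *Fabp5*, the epidermal fatty-acid-binding protein, had 6158, 5171, 4970 and 4317 FPKM, highest in CTR 1. *Slpi*, an inhibitor of leukocyte proteases, had 3421, 5081, 5288 and 2865 FPKM. CTR 2 and CTR 3 were the high papillomas for *Slpi*, while for *Fabp5* the highest papilloma was CTR 1. The next places in the ranking by mean went to *Sprr1a* (3630 ± 724), a cornified envelope precursor, the glutathione transferase *Gsto1* (2521 ± 373), the envelope protein *Cnfn* (2484 ± 897), the elongation factor *Eef1a1* (2459 ± 171), the secreted epidermal protein *Dmkn* (2407 ± 197) and *Fabp4* (2340 ± 766). Places 15 to 25 were held by *Sprr3*, *Sprr1b*, *Anxa1*, *S100a11*, *BC100530*, *Calm4*, *Rps12*, *Tpt1*, *Rplp1*, *Rpl41* and *Perp*, with means from 2029 down to 1568 FPKM.

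*Fabp4* is best known from fat cells, and its level did not travel with other genes of adipocytes. It had 2510, 1374, 3228 and 2250 FPKM. Of the 8 adipocyte markers listed, 5 were at 0 in all papillomas, *Adipoq* among them, and *Car3* and *Cfd* had no more than 0.0639 FPKM in any. *Fabp4* lay at chr3:10204343-10208576 and *Fabp5* at chr3:10012606-10016610, both in the deposited coordinates on GRCm38.

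Reading the keratins by their partners, *Krt5* (941.5, 1697, 1630 and 1730 FPKM) was far below *Krt14*, its partner in the basal layer. The ratio of *Krt14* to *Krt5* was 4.77 ± 0.75 (SD, n = 4). CTR 1 stood apart as the lowest papilloma for *Krt5*. *Krt13* had 2406, 5039, 6007 and 4753 FPKM, again lowest in CTR 1, and *Krt4*, its partner in internal epithelia, had 299.8, 579.7, 782.0 and 407.3 FPKM with the same papilloma lowest. *Krt10*, a keratin of the spinous layer, had 1440, 1365, 949.9 and 916.6 FPKM. *Krt1*, the partner of *Krt10*, had 187.1, 698.4, 470.3 and 807.1 FPKM. The 2 partners did not keep step, and the ratio of *Krt10* to *Krt1* fell between 1.14 in CTR 4 and 7.70 in CTR 1. *Krt17* had 1413, 507.9, 1150 and 1465 FPKM, so it was lowest in CTR 2. In these whole tissues, fewer cells of a layer and less RNA per cell cannot be told apart.

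Together the 51 keratin genes found held 10.1% ± 0.75 of the summed FPKM. *Krt6a*, *Krt6b*, *Krt16* and *Krt17* made up 58.7% ± 5.47 of this keratin FPKM, with CTR 1 at the top of the range (66.6%) and CTR 2 at the bottom (53.9%). Type I keratins exceeded type II keratins in each papilloma, with a ratio of 1.23 ± 0.08. The 15 keratins averaging 10 FPKM or more ended with *Krt78* (92.0 ± 22.7), *Krt80* (49.2 ± 7.03), *Krt23* (27.7 ± 13.9), *Krt15* (15.9 ± 8.58), a keratin of basal and hair follicle stem cells, and *Krt42* (11.5 ± 9.83). The simple-epithelium keratins were low. *Krt18* had 0.417, 2.35, 3.42 and 7.16 FPKM, and its partner *Krt8* 0.109, 0.367, 0.569 and 0.672 FPKM, with the order CTR 1 to CTR 4 the same for both. *Krt18* and *Krt8* were chosen for mention after their values were seen.

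**Figure D2:**
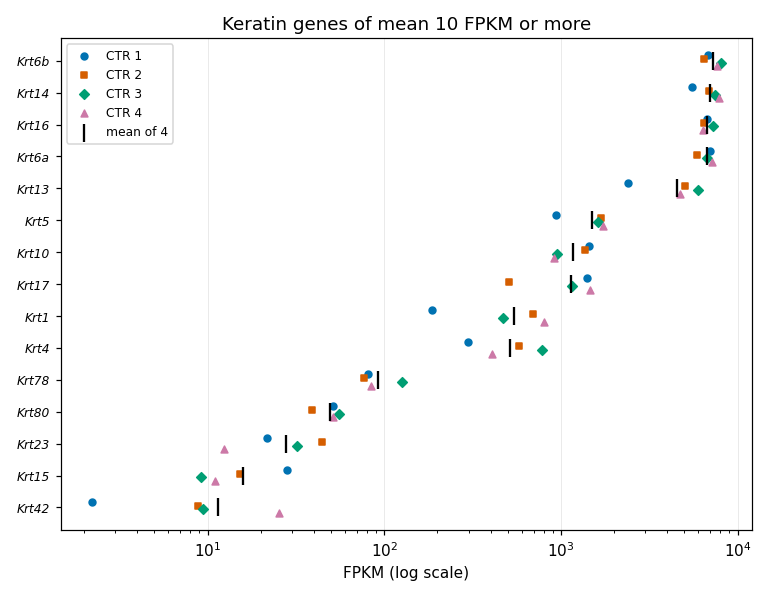
FPKM (x axis, log scale) of the 15 keratin genes averaging 10 FPKM or more; each symbol is 1 CTR papilloma and the black bar is the mean of the 4. *Krt6b*, *Krt14*, *Krt16* and *Krt6a* lie together between 5494 and 8049 FPKM, while *Krt1* and *Krt42* spread from CTR 1 at the left to CTR 4 at the right.

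Near-identical paralogs put a limit on the levels of single keratins. Of the 40-base words in the GENCODE transcripts of *Krt6a*, 43.1% also occur in *Krt6b*, and 47.4% of the words of *Krt6b* occur in *Krt6a*. *Krt16* shared 44.3% of its words with other genes, and *Krt14* shared 14.4% with *Krt16*. A read of 40 bases from such a stretch cannot be assigned to 1 gene, so the split within these families is uncertain.

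Upstream sequence was read for the abundant genes that the RefSeq promoter table of GRCm38.p6 holds, 74 of the top 100. The windows ran from 250 bases before to 50 after the annotated start, and some genes had several. The word TATAAA beginning 40 to 20 bases before the start, on the strand of the gene, was in 10.6% of 85 windows of the top 100, against 1.99% of all 32851 promoter windows. The AP-1 type word TGANTCA, which reads the same on both strands, was in 17 of the 85 windows, against 7.81% of all. Anywhere in the window and on either strand, TATAAA was in 21.2% against 13.6%. The words divided the top 100 by kind of gene. Among 39 windows of ribosomal protein genes, TATAAA was in none at that position and TGANTCA in 1. Among the 46 windows of the other genes, TATAAA was in 19.6% and TGANTCA in 34.8%. These windows came from 41 genes, and *Dmkn* and *Krt13* were each counted more than once for TGANTCA. The genes with TATAAA at this position were *Krtdap*, *Krt10*, *Sprr1b*, *Sprr3*, *Lor*, *S100a8*, *Fam25c*, *Anxa1* and *Ppia*. These are matches of letters and not mapped binding sites.

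The 100 bases before the annotated start follow for *Rps12* and for epidermal genes that all hold TATAAA there, so the choice does not stand for epidermal genes at large. The windows of *Krt14*, *Krt5*, *Krt13*, *Slpi*, *S100a9* and *Klk10* held no TATAAA in these bases. *Krt6a*, *Krt6b* and *Krt16* had no window. Sequences are given 5′ to 3′ on the strand of the gene, with TATAAA and TGANTCA in capitals. In *Krtdap*, *Sprr1b* and *S100a8* the word TATAAA began 30 bases before the start, in *Krt10* 26 bases and in *Sprr1a* 43 bases before it, just outside the position counted above. *Rps12* had neither word in these bases. The windows are chr7:30787805-30787904 (+) for *Krtdap*, chr3:92438780-92438879 (−) for *Sprr1b*, chr3:92485882-92485981 (−) for *Sprr1a*, chr3:90668971-90669070 (+) for *S100a8*, chr11:99389365-99389464 (−) for *Krt10* and chr10:23787210-23787309 (−) for *Rps12*, and each ends at the base before the deposited gene entry begins.
Krtdap: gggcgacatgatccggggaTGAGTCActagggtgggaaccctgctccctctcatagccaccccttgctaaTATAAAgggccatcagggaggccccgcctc
Sprr1b: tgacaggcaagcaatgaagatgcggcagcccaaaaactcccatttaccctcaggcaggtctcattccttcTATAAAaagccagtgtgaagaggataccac
Sprr1a: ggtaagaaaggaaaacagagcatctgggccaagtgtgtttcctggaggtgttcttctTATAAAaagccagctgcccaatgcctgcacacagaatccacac
S100a8: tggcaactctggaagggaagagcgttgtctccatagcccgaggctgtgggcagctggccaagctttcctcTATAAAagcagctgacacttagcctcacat
Krt10: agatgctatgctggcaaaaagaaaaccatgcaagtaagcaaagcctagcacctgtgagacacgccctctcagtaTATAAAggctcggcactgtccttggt
Rps12: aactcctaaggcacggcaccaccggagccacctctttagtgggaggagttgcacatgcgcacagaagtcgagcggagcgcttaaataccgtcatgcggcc

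The abundant genes were not spread evenly over the chromosomes. Chromosome 7 held 12.8% of the mean FPKM and 19 of the top 100 genes with 7.64% of the expressed genes, and it carries *Krtdap*, *Dmkn*, *Sbsn* and the kallikreins. Chromosome 3, with the small proline-rich proteins and S100 proteins, held 10.9% and 14 of the top 100 with 5.27% of the expressed genes. The type I keratin cluster lies on chromosome 11 (12.7% of FPKM, 13 of the top 100, 8.44% of the expressed genes). The type II cluster lies on chromosome 15 (7.67% of FPKM, 5 of the top 100, 4.14% of the expressed genes). On chromosome 15 the count in the top 100 was near the share of expressed genes.

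Genes on the lists of secreted products held 7.62% ± 0.58 of the summed FPKM, over 239 listed genes that were found. Whether each product is secreted was not tested, and the lists include the stefin A genes. *Krtdap*, *Slpi* and *Dmkn* led the listed genes and were followed by the kallikreins, serine proteases that trim corneodesmosomes. *Klk10* had 1693, 707.0, 1643 and 1172 FPKM, and *Klk14* 1106, 1036, 1827 and 979.3 FPKM. CTR 3 stood above the others for *Klk14*, and CTR 2 was lowest for *Klk10*. *Klk7*, *Klk8*, *Klk9* and *Klk13* had means between 249.8 and 402.2 FPKM, and each was lowest in CTR 2 and highest in CTR 3. *Spink5*, which encodes an inhibitor of some epidermal kallikreins, had 386.4, 277.0, 342.6 and 330.0 FPKM. It varied less than the proteases, with a CV of 13.5% against 35.4% for *Klk10* and 32.1% for *Klk14*. *Sbsn*, a suprabasal protein next to *Krtdap* and *Dmkn*, had 1582, 565.7, 1797 and 1147 FPKM with CTR 2 lowest.

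Calprotectin subunits and defensins were among the most abundant genes of host defence. *S100a9* had 293.8, 945.4, 516.6 and 762.2 FPKM and *S100a8* had 306.6, 859.8, 585.4 and 754.9 FPKM, so both subunits ranked the papillomas in the same order with CTR 1 lowest. *Defb4* had 333.0, 880.9, 695.8 and 248.2 FPKM and *Defb14* 353.4, 202.2, 476.4 and 280.4 FPKM. The 2 beta-defensins, neighbors on chromosome 8, differed in which papilloma was highest. *Lgals7*, a galectin of stratified epithelia, had 935.1, 934.6, 1883 and 984.2 FPKM, and only CTR 3 stood out among the 4. Among the listed cytokines that were found, *Mif* (282 ± 66.4) and the interleukin 1 receptor antagonist *Il1rn* (165 ± 48.3) were the most abundant. *Il1rn* was lowest in CTR 2 at 94.0 FPKM. The listed chemokine *Ccl27a* was not among the symbols kept, so its place is not known.

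**Figure D3:**
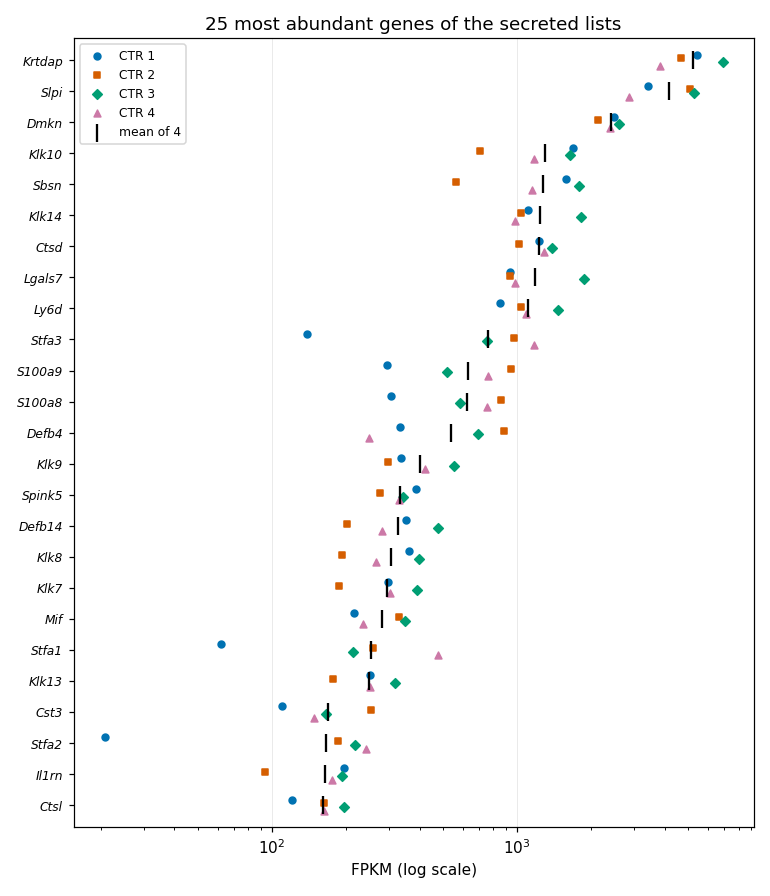
FPKM (x axis, log scale) of the 25 most abundant genes from the lists of secreted products; each symbol is 1 CTR papilloma and the black bar is the mean of the 4. *Krtdap*, *Slpi* and *Dmkn* lie above 2000 FPKM in all 4 papillomas, and *Stfa3*, *Stfa1* and *Stfa2* are lowest in CTR 1 by a wide margin.

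Markers of other cell types were low beside the keratins. Fibroblast markers, 10 genes, summed to between 86.2 and 146 FPKM, with *Col1a2* (25.4 to 46.6) and *Col1a1* (18.9 to 48.6) at the top. Endothelial markers summed to 19.0 to 29.9 FPKM, smooth muscle and pericyte markers to 13.6 to 24.0 FPKM and T cell markers to 8.39 to 11.8 FPKM. The 8 dendritic and Langerhans cell markers summed to 131 to 214 FPKM, with *Cd74* from 38.7 to 74.8 FPKM. Skeletal muscle markers summed to 3.17 FPKM at most, the 5 B cell markers to 0.282 FPKM and the hair shaft and root sheath genes to 6.48 FPKM. Of the neutrophil markers, *S100a8* and *S100a9* were abundant, while *Cxcr2* had 5.51, 4.84, 9.16 and 4.84 FPKM, *Csf3r* had at least 0.265 and at most 0.75 FPKM, and 2 of the 9 markers found were at 0 in all papillomas. Keratinocyte genes were thus the most abundant in the tissue labelled as papilloma, and the markers of skeletal muscle, B cells and, apart from *Fabp4*, fat were low.

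The steadiest abundant genes were named by their rank alone. Among those averaging 50 FPKM or more, the smallest SD of log2 values belonged to *Spint2*, a membrane inhibitor of serine proteases, with 112.0, 113.7, 114.3 and 114.3 FPKM. The proteasome subunits *Psmc1* and *Psmd6*, the chaperonin subunits *Cct2* and *Cct8*, malate dehydrogenase *Mdh2*, *Atp6ap1*, *H3f3b*, *Rpl3* and *Ube2v1* completed the 10, all with a CV of 3.06% or less. For comparison, the median CV over the 10790 genes was 19.0%.

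The spread between papillomas is that between separate tumors of separate mice, and it was set beside counting error only as a description. The median SD of log2(FPKM + 0.5) over the 4 was 0.25, whereas the Cufflinks intervals correspond to a median counting SD of 0.078. The SD between papillomas was above that from counting for 91.4% of the 10790 genes. The counting SD was taken without the added 0.5, which shrinks only the SD between papillomas, so the scales differ for low genes. A gene was called variable when its log2 values spanned at least 2, a 4-fold range of FPKM + 0.5, and the intervals of its lowest and highest papilloma did not overlap. This applied to 204 genes, 1.89% of the 10790 genes averaging 1 FPKM or more. The share was 2.34% between 1 and 5 FPKM, 1.48% between 5 and 10, 1.47% between 10 and 100 and 3.28% from 100 FPKM up. It is a description of 4 tumors with no test.

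CTR 1 was the papilloma that most often stood apart. It was lowest for 119 of the 204 genes and highest for 21. CTR 4 was highest for 75 and CTR 2 for 67 of them. The share of all expressed genes lowest or highest in each papilloma is not given, so these counts have no background. By the widest gap between neighboring values, 70 genes had CTR 1 alone at the bottom, 28 had CTR 2 alone at the bottom, 26 had CTR 2 alone at the top and 23 had CTR 4 alone at the top. Without CTR 1 the count of variable genes was 100, and without CTR 2 it was 126.

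**Figure D4:**
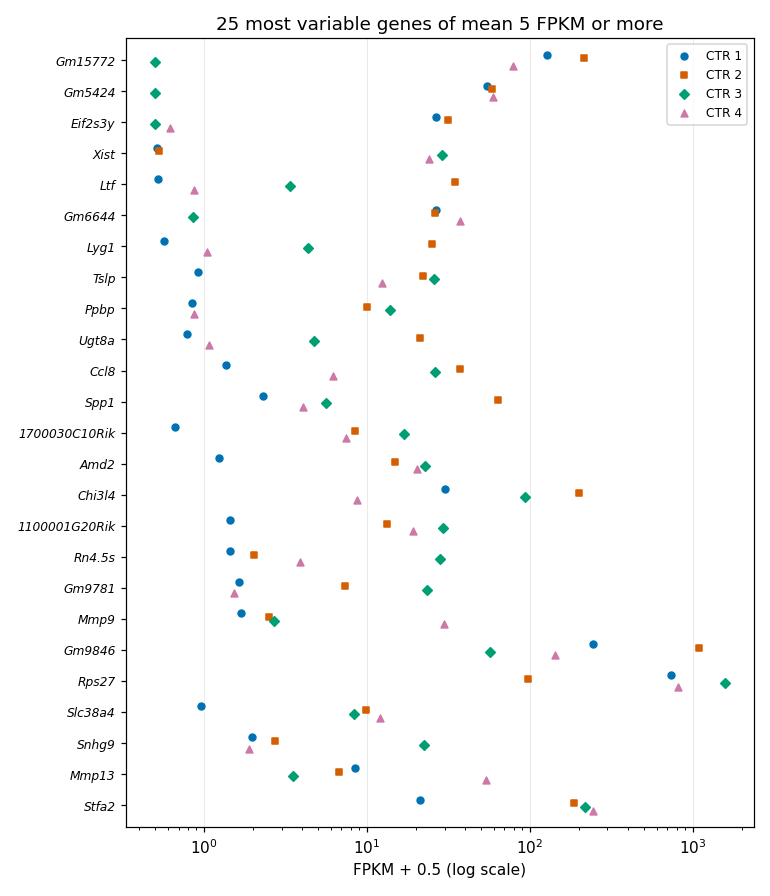
FPKM + 0.5 (x axis, log scale) of the 25 genes with the largest SD of log2(FPKM + 0.5) that average 5 FPKM or more; each symbol is 1 CTR papilloma. *Ltf*, *Lyg1* and *Spp1* are highest in CTR 2, *Mmp9* and *Mmp13* in CTR 4, and *Tslp*, *Ccl8* and *Stfa2* are lowest in CTR 1.

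Of the 239 genes found from the secreted lists, 179 averaged 1 FPKM or more, and 33 of these (18.4%) were variable, beside 1.89% of all genes. A gene that reached this mean through a single papilloma had to vary, so the share describes the genes that passed and not all listed genes. The lists differed among themselves. Cytokines and chemokines had 12 of 32 variable, antimicrobial and protease-inhibitor proteins 10 of 35, proteases 5 of 23, growth factors and modulators 4 of 33, and extracellular matrix genes 0 of 37. Type I keratins had 2 of 10, type II keratins 3 of 12 and the cornified envelope list 7 of 54. The lists were drawn up with earlier results of these data known.

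The cytokine with the widest span was *Tslp*, the alarmin that keratinocytes release in type 2 inflammation. It had 0.419, 21.7, 25.4 and 11.8 FPKM, and CTR 1 was far below the rest. *Ccl8*, a chemokine for monocytes and T cells, had 0.874, 36.8, 25.8 and 5.73 FPKM, also lowest in CTR 1. *Ppbp*, a neutrophil chemokine precursor, was at 9.55 FPKM in CTR 2 and 13.4 FPKM in CTR 3 but at 0.344 and 0.374 FPKM in CTR 1 and CTR 4. *Spp1*, which encodes osteopontin, had 1.82, 63.3, 5.16 and 3.56 FPKM and was high in CTR 2. *Ccl2*, *Ccl7*, *Csf3* and *Tnf*, mediators that recruit or activate myeloid cells, each had CTR 4 alone at the top, and *Ccl2* had 4.07, 3.64, 3.19 and 29.1 FPKM. The interleukin 20 family members *Il19* and *Il24* had CTR 1 at the bottom, with 2.51 FPKM for *Il19* and 1.3 FPKM for *Il24* there against 8.66 and 2.86 FPKM in the next papilloma.

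Matrix metalloproteinases supplied the 5 variable proteases. *Mmp9*, a gelatinase, had 1.19, 2.02, 2.18 and 29.2 FPKM. *Mmp13*, a collagenase, had 8.01, 6.27, 3.01 and 53.1 FPKM. *Mmp3* and *Mmp10*, both stromelysins, were highest in CTR 4 as well, at 17.8 and 12.5 FPKM, while *Mmp12*, the macrophage metalloelastase, was highest in CTR 2 at 7.78 FPKM. In the same CTR 4 papilloma, *Inhba* and *Tgfb3*, ligands of the TGF-beta superfamily, had 3.17 and 7.21 FPKM against at most 0.976 and 2.00 FPKM. *Lamb3*, which encodes a laminin beta chain, was highest there as well, with 7.39, 13.2, 18.3 and 29.9 FPKM, and was not called, since its span was 1.95 on the log2(FPKM + 0.5) scale.

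Among antimicrobial genes *Ltf*, which encodes lactoferrin, had 0.0210, 34.2, 2.90 and 0.376 FPKM, so CTR 2 stood far above the rest. *Lyg1*, a lysozyme-like gene, had 0.0725, 24.5, 3.85 and 0.544 FPKM, in the same order. *Chi3l4*, a chitinase-like gene, had 29.6, 199 and 93.0 FPKM in CTR 1 to CTR 3 and 8.16 FPKM in CTR 4. *Chi3l3* (0.752, 7.47, 1.83 and 0.372 FPKM) and *Lcn2* (2.44, 10.4, 2.14 and 4.54 FPKM) were highest in CTR 2 too. The stefin A genes, which encode inhibitors of cysteine proteases, were lowest in CTR 1: *Stfa3* had 138.7, 974.0, 756.0 and 1172 FPKM, *Stfa2* 20.8, 186, 218 and 242 FPKM, and *Stfa1* 62.1, 259, 214 and 478 FPKM. Of the 40-base words of *Stfa1*, 32.5% occur in other genes, mostly *BC100530*, as do 25.5% of those of *Stfa2*, so the split within the family is uncertain.

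In the cornified envelope list the variable genes fell into 2 patterns. *Sprr2e*, *Sprr2f*, *Sprr2g* and the transglutaminase *Tgm3* were lowest in CTR 2. *Sprr2f* had 269, 38.5, 273 and 381 FPKM and *Tgm3*, which crosslinks the envelope, had 621.5, 156.8, 521.2 and 650.0 FPKM. *Lce1m*, *Sprr2b* and *Flg2* were instead lowest in CTR 1, with 1.4, 8.01, 14.5 and 20.5 FPKM for *Lce1m* and 124, 664, 336 and 393 FPKM for *Sprr2b*. As deposited, *Sprr2b* and *Sprr2f* thus ran in opposite directions between CTR 1 and CTR 2. Words shared with other genes were not counted for the *Sprr2* genes. Whether the reads of this family were assigned to the right member was therefore not tested. The largest number of the 54 expressed genes, 29, peaked in CTR 3, where *Cnfn* (1980, 1971, 3823 and 2161 FPKM) also stood out. That number was 28 after upper quartile scaling and 20 after scaling to equal sums. The share of all expressed genes that peaked in CTR 3 is not given.

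Other genes with a wide span that no list held were named by their rank alone. *Ugt8a*, a galactosyltransferase, had 0.284, 20.6, 4.24 and 0.573 FPKM, in the papilloma order of *Ltf* and *Lyg1*. *Slc38a4*, an amino acid transporter, had 0.461 FPKM in CTR 1 and 7.86 to 11.5 FPKM in the others. *1100001G20Rik* had 0.952 FPKM in CTR 1 and 12.9 to 28.9 FPKM elsewhere, and *1700030C10Rik* had 0.168 FPKM in CTR 1 and 6.95 to 16.4 FPKM elsewhere. The noncoding RNAs *Rn4.5s* and *Snhg9* were high in CTR 3 only, at 27.7 and 21.9 FPKM, with at most 3.37 and 2.24 FPKM in the other papillomas.

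Of the 25 widest genes, 7 were entries that lie on top of another gene's entry. *Gm9846* and *Rps27* were deposited at the same locus, chr3:90212667-90213648 for *Rps27*. *Rps27* had 732, 97.2, 1578 and 813 FPKM and *Gm9846* had 244.5, 1088, 56.8 and 142 FPKM, so one was high where the other was low. Their sum was 976, 1185, 1634 and 955 FPKM, and the SD of its log2 values was 0.36 against 1.73 for *Rps27* and 1.78 for *Gm9846*. The same held for *Gm15772* with *Rpl26* (0.20 for the sum against 4.05 for *Gm15772*), *Gm5424* with *Ass1* (0.30 against 3.42), *Gm6644* with *Akr1b3* (0.27 against 2.56) and *Gm9781* with *Eif3j* (0.22 against 1.88). GENCODE vM21, on the same build, places the symbols *Gm9846*, *Gm15772*, *Gm5424*, *Gm6644*, *Gm9781* and *Amd2* at loci that do not overlap these partners, and between 79.9% and 92.4% of the 40-base words of their transcripts occur in the partner. *Amd2* overlaps *Amd1*, whose value failed in the deposited files, so no sum could be formed. Over all tested genes, 1.02% shared at least 50% of their locus with another symbol, and among the variable genes 5.39% did. With these symbols left out, 193 of 10680 genes were variable, 1.81%.

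The sex-linked genes divided the papillomas 2 and 2. *Xist*, the RNA of the inactive X chromosome, had 0.0129 and 0.0318 FPKM in CTR 1 and CTR 2 and 28.6 and 23.6 FPKM in CTR 3 and CTR 4. The Y-linked *Eif2s3y* had 26.1 and 31.2 FPKM in CTR 1 and CTR 2, and 0 and 0.124 FPKM in CTR 3 and CTR 4. *Ddx3y*, *Kdm5d* and *Uty* split the same way. Besides these, the widest gap put CTR 3 and CTR 4 above CTR 1 and CTR 2, or the reverse, in 6 of the other variable genes, among them *Hmga2* (3.85, 6.28, 14.7 and 23.3 FPKM) and *Adh7* (17.4, 22.6, 6.90 and 4.105 FPKM), which were chosen for mention after their values were seen. *Nanog* itself had 2.70, 2.84, 12.7 and 3.34 FPKM, with CTR 3 high. Of its 40-base words, 7.28% occur in other transcripts. Whether the reads came from the allele or from the native gene was not tested.

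Whole lists were followed across the papillomas as the mean deviation of their genes from the mean of the 4 on the log2(FPKM + 0.5) scale. The median deviation of all expressed genes was 0.07, −0.14, 0.03 and 0.06 in CTR 1 to CTR 4, so values for CTR 2 are to be read against −0.14. Upper quartile scaling removed this offset, and scaling to equal sums gave 0.13, −0.11, −0.12 and 0.11. The share of all expressed genes highest or lowest in each papilloma is not given, so counts of such genes in a list have no background. Proliferation genes, none of them variable by the call, deviated by 0.30 in CTR 1 and −0.39 in CTR 2. CTR 1 was highest for 17 of 20 under each of the 3 scalings, and *Mki67* had 27.8, 10.3, 15.9 and 22.1 FPKM and the topoisomerase *Top2a* 40.5, 15.3, 22.4 and 28.2 FPKM. Genes of the Ras-ERK and tumor promotion list were lowest in CTR 2 for 17 of 19 (14 after upper quartile scaling), with a mean deviation of −0.55. The EGF receptor ligand *Hbegf* had 70.4, 23.6, 62.0 and 83.6 FPKM, cyclin D1 (*Ccnd1*) 65.3, 47.8, 123 and 109 FPKM, and ornithine decarboxylase (*Odc1*), a classical TPA-induced enzyme, 121, 75.1, 138 and 116 FPKM. CTR 2 was the lowest papilloma for each of these. Immediate early and heat shock genes were lowest there as well for 13 of 14 (11 after upper quartile scaling), among them *Fos* with 12.3, 5.18, 6.83 and 18.2 FPKM. None of the genes in these 3 lists was called variable.

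Most extracellular matrix and basal keratinocyte genes were highest in CTR 4, and none of them was called variable. Of 37 matrix genes, 28 were highest in CTR 4 and 24 lowest in CTR 1, with mean deviations of 0.49 and −0.40. The list included *Col1a1* with 18.9, 31.4, 31.2 and 48.6 FPKM, a gene next to which the allele was inserted. Of 15 basal genes, 11 were highest in CTR 4 (9 after upper quartile scaling), such as the hemidesmosome integrin *Itgb4* with 37.5, 46.6, 61.6 and 75.4 FPKM and *Col17a1* with 56.5, 76.8, 87.0 and 103 FPKM. Cytokines and chemokines deviated by −0.78 in CTR 1 and antimicrobial genes by −0.68, and antimicrobial genes were highest in CTR 2 at 0.49. Beside these, fibroblast markers summed to 86.2, 113, 102 and 146 FPKM and macrophage markers to 35.9, 48.8, 43.3 and 51.5 FPKM in CTR 1 to CTR 4. Neutrophil markers summed to 607, 1811, 1112 and 1522 FPKM, nearly all of it *S100a8* and *S100a9*. The much lower *Cxcr2* and *Csf3r* did not follow that order. *Cxcr2* was highest in CTR 3, and *Csf3r* was highest in CTR 1, where the sum was lowest. Whether the sum follows the number of neutrophils was not tested. The part of fibroblasts, macrophages and neutrophils in the deviations was not tested either.

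**Figure D5:**
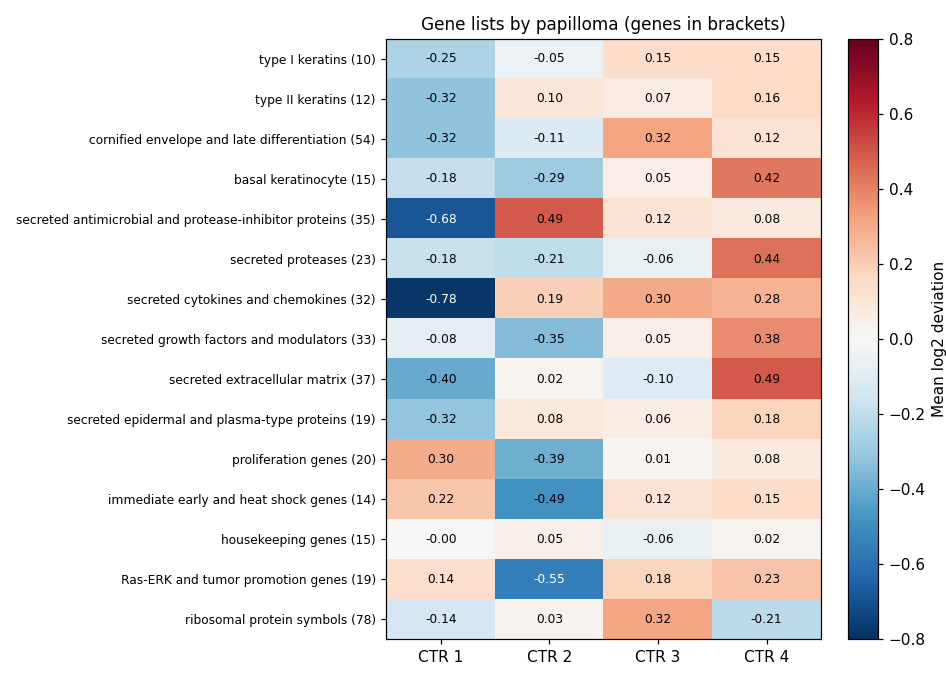
Mean deviation of each gene list (rows, with the number of genes of at least 1 FPKM) from the mean of the 4 CTR papillomas (columns), on the log2(FPKM + 0.5) scale, red above and blue below. Cytokine and antimicrobial lists are lowest in CTR 1 (−0.78 and −0.68), Ras-ERK and immediate early lists in CTR 2 (−0.55 and −0.49), and matrix genes are highest in CTR 4 (0.49).

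Ribosomal protein genes, 82 symbols, held 15.0% ± 1.59 of the summed FPKM, and their deviation was −0.14, 0.03, 0.32 and −0.21. As deposited, CTR 3 was highest for 58 of 78, but after upper quartile scaling CTR 2 was highest for 45 and CTR 3 for 33, so which of the 2 was highest depended on the scaling. CTR 4 was lowest for 53 as deposited and 56 after scaling. Transcript length moved with the papillomas. Genes of up to 600 bases had median deviations of −0.15, 0.03, 0.19 and −0.04, and genes over 2500 bases had 0.16, −0.25, −0.01 and 0.12. Centring each length class left the deviation of ribosomal genes at 0.21 in CTR 3, of Ras-ERK genes at −0.43 and proliferation genes at −0.27 in CTR 2, and of matrix genes at 0.40 in CTR 4.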

How the data were processed

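The authors deposited gene FPKM, 1 file per papilloma, each value with an interval of 2 standard errors on either side and a status. Cufflinks 1.3.0 computed them from stranded 40-base single reads placed on GRCm38 by TopHat 2.0.4, which ran Bowtie 0.12.7 (SAMtools 0.1.16 was also used). The strand setting of Cufflinks is not given in the sources used here. The 4 CTR files were joined on symbol and locus (23746 entries). Entries of 1 symbol were summed, 90 symbols with status FAIL in any CTR file were left out, and 23194 were kept. Locus starts count from 0: after adding 1, 56.1% of 20394 equalled the RefSeq start (3.37% without). Depth was inferred from the intervals, on the assumption that they reflect read counting, and 67.0 to 68.5% of the values under 50 reads came out whole within 0.05, so no count test was run. Shares are of summed FPKM.

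Tables were handled in pandas 2.3.3 and numpy 2.4.6 under Python 3.11.15, with intervals from scipy 1.17.1 and plots from matplotlib 3.10.9. Deviations are on log2(FPKM + 0.5), which understates changes of low genes. With a single group there was no contrast and no p-value, and n is 4 mice throughout. The code for the call of variable genes was checked on simulated data, which gives no error rate for these tumors. The members and the 32 gene lists were chosen with earlier results of these data known. Named genes were the 25 highest by mean, keratins of at least 10 FPKM, the 25 highest of the secreted lists, the 25 with the largest SD of log2 values at a mean of at least 5 FPKM, the 10 with the smallest at a mean of at least 50 FPKM, *Nanog*, sex-linked genes and a few members of each other list. Genes outside this rule were named as members of a list called variable, or after their values were seen. Alternatives were other scalings, pseudocounts, thresholds and leaving out each papilloma.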

Additional observations from a re-analysis of the deposited data

Results flagged for a closer look

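Among 4 papillomas a value was picked out when its gap to the nearest other value, as a share of the whole range, exceeded Dixon's critical value for 4 samples. Of 229 values examined, 195 genes and 34 list sums, this picked out 23 genes. Chance gives about 1 in 20 where genes are chosen without regard to their values. That rate does not hold here, since 8 of the 23 were among the 25 genes chosen for their largest SD, and *Car3*, *Cfd* and *Ms4a1* were at 0 in the other 3 papillomas. Of the 23, 12 were in CTR 3.

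CTR 3 was far above the others for *Cnfn* (3823 FPKM), *Lgals7* (1883), *Klk14* (1827), *Krt78* (126), *Rn4.5s* (27.7), *Snhg9* (21.9), *Nanog* (12.7), *Cxcr2* (9.16), *Acta1* (0.409), *Car3* (0.0639) and *Cfd* (0.0484), and far below them for *Gm5424* (0.00398), whose locus is shared with *Ass1*. CTR 2 was far above the others for *Spp1* (63.3 FPKM), *Ltf* (34.2), *Lyg1* (24.5) and *Myh1* (0.198). CTR 4 was far above for *Mmp13* (53.1 FPKM), *Mmp9* (29.2) and *Tagln* (7.32), a gene of contractile cells. CTR 1 was far below for *Krt5* (942 FPKM), *H3f3b* (199) and *Vwf* (0.538) and above for *Ms4a1* (0.0307). For *H3f3b* the gap was between 199 and 209 FPKM, a small difference within a narrow range. The values under 0.5 FPKM rest on few reads.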

How the results depend on the processing

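For 57 named genes, the mean stayed within 1 SD in 399 of 399 recomputed values. Only 171 of these came from other processing. The rest came from leaving out a papilloma, which with so few papillomas cannot move a mean by 1 SD, so they decide nothing. Among the 171, keeping values of every status cannot change the mean of a kept gene. Taking the highest entry cannot change it where a symbol has a single entry. For such genes only upper quartile scaling could move the mean. Gene means were not recomputed after scaling to equal sums. For the 26 summary results, 166 of 175 values stayed within 1 SD or, for counts, within 1.5 times. For list deviations the SD was over the genes of the list. Promoter percentages were judged instead by a binomial (Wilson) interval around the top 100 value. Only 88 of the 166 came without leaving out a papilloma. Scaling a papilloma cannot change a share or ratio within it, so those values decide nothing either. None changed sign, and 9 moved beyond these limits. Scaling every papilloma to the same larger sum put 1260 genes at a mean of 100 FPKM or more against 458, because it raises every value. The 204 variable genes became 105 at a mean of at least 5 FPKM, 1513 with a range of at least 1 and 64 with a range of at least 3, by construction of the thresholds. Leaving out a papilloma gave 100 to 175, lowest without CTR 1. Of the 25 widest genes, 16 to 22 remained when a papilloma was left out, 16 without CTR 3. In the 50 most abundant genes, TATAAA at its position was in 18.9% of windows and TGANTCA in 29.7%, against 9 and 17 of 85 windows in the top 100. The count of variable genes stayed within 1.5 times at 292 with a pseudocount of 0.1 and 139 with 1. Centring by length class and leaving out shared loci were chosen after seeing the data and gave 199 and 193 variable genes. No paired analysis was possible because the result comes from no test between groups. At these depths a gene near 1 FPKM rests on few reads, so genes under that level are given as values only.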
